A study of Sus scrofa with 12 samples.

Results

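Translation factors and aminoacyl-tRNA synthetases were followed in the endometrium of 12 sows, pigs (Sus scrofa) of 2 breeds. The genes were chosen by name, from probe sets with exactly 1 gene symbol on the array. The symbol had to begin with EIF or EEF and a digit, or with EPRS, or be 1 letter and ARS. A final 1 or 2 was allowed after ARS. FARSA and FARSB, subunits of the cytosolic phenylalanine enzyme, were left out by this form and are given below. The rule gave 61 genes, 42 translation factors and 19 synthetases, of the 6765 genes with a probe set of 1 symbol. The rule used names only, but it was chosen with earlier results of these data known. They had 93 of the 23999 probe sets tested, and where a gene had several, which was so for 23 of them, the one with the highest mean log2 value represented it. By their names, 13 of the synthetases serve the cytosol and 6 (names ending in 2) serve mitochondria. The factor class also goes by name, so it holds genes with other roles, such as EEF1E1, EIF4A3 and EEF1AKMT1, described below.

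Aminoacyl-tRNA synthetases join each amino acid to its transfer RNA. Initiation factors (eIF) bring the messenger RNA cap, the initiator transfer RNA and the small ribosomal subunit together at the start codon, and elongation factors (eEF) deliver charged transfer RNA and move the ribosome along. Around attachment of the conceptus the uterine glands and lining secrete large amounts of protein into the lumen, which depends on this machinery.

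Endometrium was taken on Day 14 after insemination from 6 pregnant sows and from 6 sows that had received inactivated semen and were non-pregnant. Yorkshire and Landrace pigs each made up 3 of both groups. Each sow gave 1 Affymetrix porcine array. Sows are called by the numbers in their labels, with even numbers pregnant and odd numbers not; sows 1 to 4, 11 and 12 were Yorkshire and sows 5 to 10 Landrace. All values are log2 expression values of 1 probe set, deposited after RMA, and a log2 difference of 1 is a doubling. The semen given to the pregnant sows and the age and parity of all sows are not given in the sources used here.

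The tissue was whole endometrium without its muscle layer, so a lower value in a group can mean fewer cells of a type or less RNA per cell, and these cannot be told apart. The 5 measured genes of an endometrial identity list of 10, among them the steroid receptors PGR and ESR1, lay above the lower quartile of at least 1 array. Non-pregnant sow 7 was least like any other array (highest correlation over probe sets 0.975, against 0.983 to 0.992 for the other arrays). Pregnant sow 12 and non-pregnant sow 11 were each most like the other, and pregnant sow 8 was most like non-pregnant sow 5. A difference between 3' and 5' probe sets of GAPDH, a sign of RNA integrity that is larger in degraded RNA, was 0.869 to 1.25 in Landrace and 1.31 to 1.63 in Yorkshire sows, without overlap (difference -0.421, two-sided exact permutation p = 0.00216, n = 6 each). Between pregnant and non-pregnant sows that measure differed by 0.164 (exact permutation p = 0.273, with breed not taken into account). Within Landrace it was 1.15 to 1.25 in pregnant and 0.869 to 1.04 in non-pregnant sows, without overlap. Within Yorkshire it was 1.49 to 1.59 in pregnant sows, against 1.31, 1.37 and 1.63 (sow 11) in non-pregnant sows. With this measure as a covariate, 0 of 61 genes and 0 of 6765 genes were called for either comparison by limma, at a larger median standard error (0.131 for pregnancy and 0.248 for breed, against 0.0985). At unadjusted p under 0.05, 21 of the 61 and 23.8% of all genes then passed for pregnancy, and 7 of the 61 and 7.86% of all genes for breed.

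The first comparison asked how the set differed between pregnant and non-pregnant sows. Cytosolic synthetases were lower in pregnancy: 6 of 13, AARS, EPRS, HARS, MARS, SARS and DARS, fell by 0.29 to 0.60 on the log2 scale and none rose. Of the translation factors, 5 of 42 fell, led by the synthetase scaffold protein EEF1E1 and the cap-binding protein EIF4E, and 1, EIF2B2, rose. None of the 6 mitochondrial synthetases and none of the 9 eIF3 subunits was called. A call means an adjusted p under 0.05 in limma, with Benjamini-Hochberg adjustment over all 23999 probe sets and breed as a term. Over all genes 12.1% were called, 7.48% lower and 4.58% higher, against 19.7% (12 of 61) here, 31.6% of the synthetases and 14.3% of the factors. At unadjusted p under 0.05, 27 of the 61 and 31.3% of all genes passed, and 45 of the 61 and 55.7% of all genes lay below 0. The median difference was -0.31 for cytosolic synthetases, -0.11 for mitochondrial synthetases, -0.07 for factors and -0.03 for all genes. These shares are descriptions, and no test of the set against other genes was made.

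**Figure D1:**
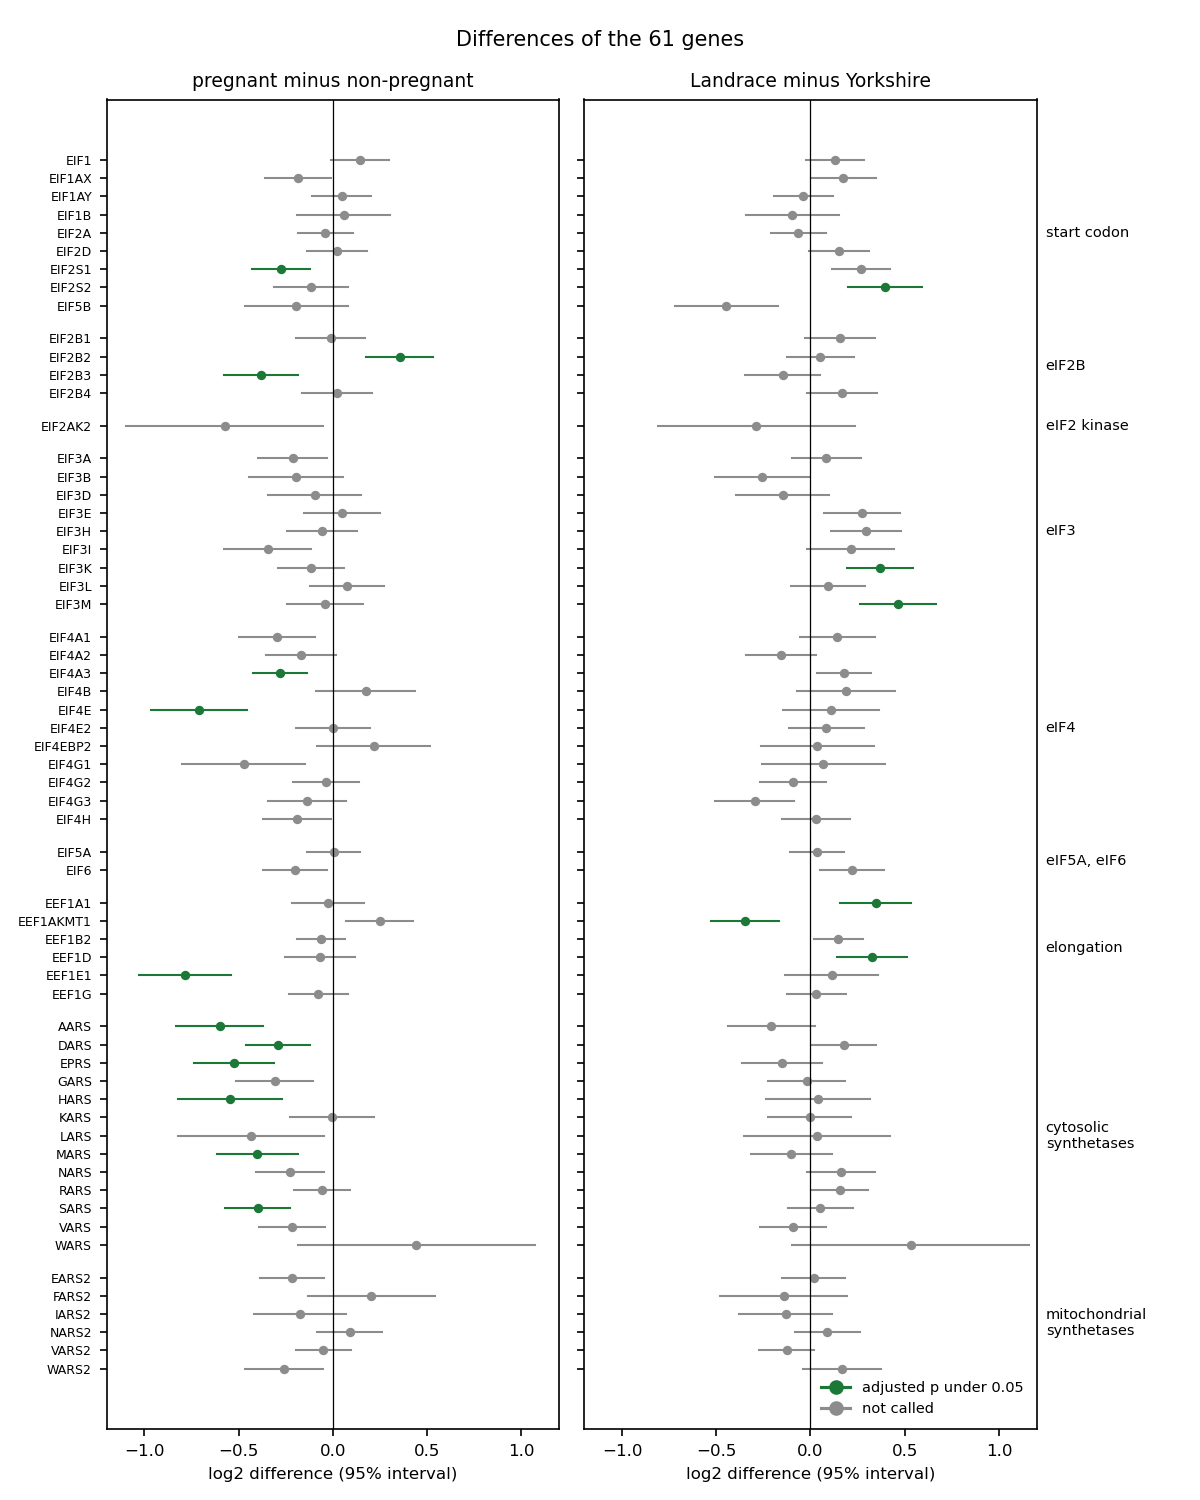
Log2 differences of the 61 genes for pregnancy (left, pregnant minus non-pregnant) and breed (right, Landrace minus Yorkshire), by class, with a point and its 95% interval per gene, green for genes past adjusted p under 0.05 (limma) and grey for the others. In the pregnancy panel 12 of the 13 cytosolic synthetases lie below 0, and in the breed panel 30 of the 42 factors lie above 0.

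AARS, which charges alanine transfer RNA, lay at 8.47 to 9.08 in pregnant sows (median 8.64) and at 9.06 to 9.57 in non-pregnant sows (median 9.26). The groups touched only through pregnant sow 12 at 9.08 and non-pregnant sow 5 at 9.06. Its difference was -0.60 ± 0.11 (SE, limma adjusted p = 0.00877). The second AARS probe set gave -0.10 (adjusted p = 0.46), and the mean of both gave -0.35 and was still called (adjusted p = 0.0137). EPRS, the enzyme for glutamate and proline that also anchors the multi-synthetase complex, lay at 8.29 to 8.77 (median 8.38) in pregnant and 8.74 to 9.22 (median 8.96) in non-pregnant sows. Pregnant sow 12 was again highest of its group at 8.77, and the other 5 pregnant sows lay below every non-pregnant sow. The difference of EPRS was -0.52 ± 0.10 (adjusted p = 0.0111). Its other probe sets, both called, gave -0.52 and -0.53.

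SARS, which charges serine transfer RNA and also selenocysteine transfer RNA, was the only synthetase without overlap between the groups, a pattern that 3% of all genes showed in the lower direction. SARS lay at 8.06 to 8.40 (median 8.21) in pregnant and 8.47 to 8.81 (median 8.62) in non-pregnant sows, with a difference of -0.40 ± 0.08 (adjusted p = 0.0128). HARS, the enzyme for histidine, lay at 6.58 to 7.25 (median 6.76) against 7.03 to 7.63 (median 7.38), a difference of -0.54 ± 0.13 (adjusted p = 0.024). The overlap of HARS came from pregnant sow 12 at 7.25 and non-pregnant sow 1 at 7.03. MARS, which charges methionine transfer RNA, including the initiator, lay at 6.82 to 7.35 (median 7.0) against 7.19 to 7.58 (median 7.48), a difference of -0.40 ± 0.10 (adjusted p = 0.0311). For MARS pregnant sow 12 lay at 7.35, above non-pregnant sows 5 at 7.32 and 9 at 7.19. DARS, the aspartate enzyme, lay at 7.24 to 7.70 (median 7.42) against 7.52 to 7.91 (median 7.75), a difference of -0.29 ± 0.08 (adjusted p = 0.0422). Pregnant sow 6, at 7.70, lay among the non-pregnant sows. The mean of all DARS probe sets, at -0.22, was not called (adjusted p = 0.132).

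**Figure D2:**
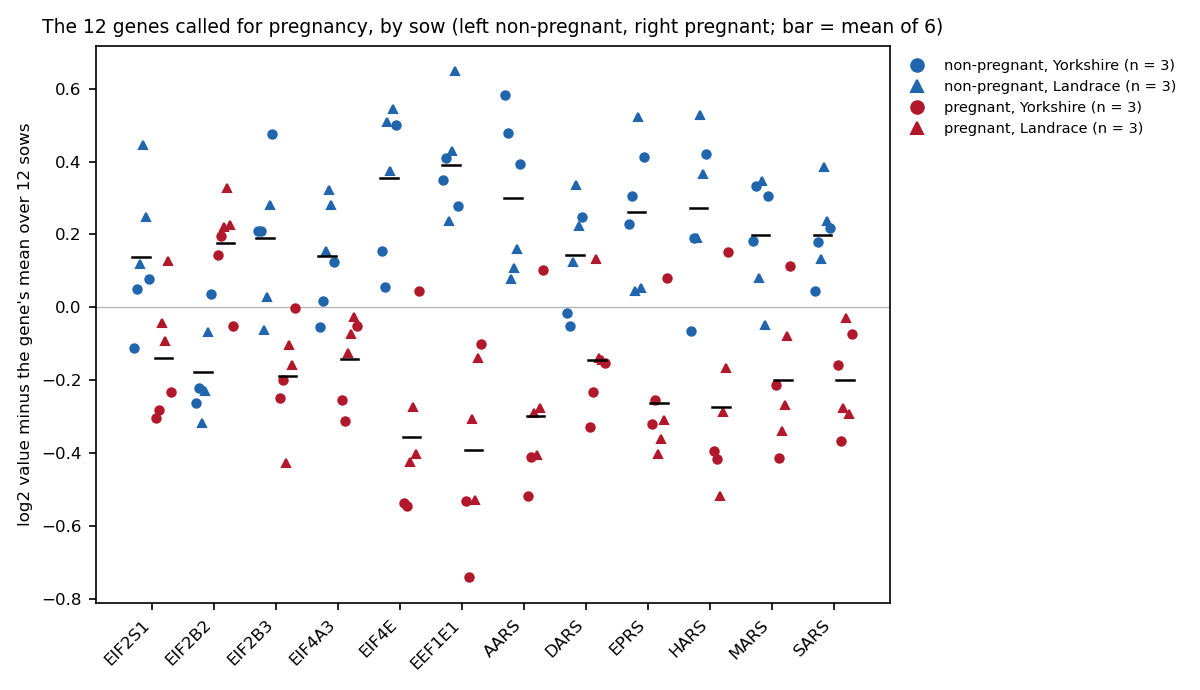
Log2 values of the 12 genes called for pregnancy, each minus the mean of the gene over the 12 sows, 1 point per sow (n = 6 per group; circles Yorkshire, triangles Landrace), with the group mean as a bar. EEF1E1, EIF4E and SARS have no overlap between the groups, EIF2B2 is higher in pregnant sows, and pregnant sow 12 is the highest pregnant sow for AARS, EPRS, HARS and MARS.

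The other 7 cytosolic synthetases were not called. GARS, the glycine enzyme, was nearest to the threshold at -0.31 (adjusted p = 0.0653), with 8.79 to 9.16 in pregnant and 9.12 to 9.53 in non-pregnant sows; it was picked out after its values were seen. KARS, the lysine enzyme, which serves both cytosol and mitochondria, differed by -0.01 with a 95% interval of -0.23 to 0.22. Its values were 10.27 to 10.79 in pregnant and 10.36 to 10.74 in non-pregnant sows. RARS, the arginine enzyme, differed by -0.06, with an interval of -0.21 to 0.09. These intervals leave out falls as large as those of AARS and EPRS. The interval of KARS does not leave out a small change in either direction.

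WARS, the tryptophan enzyme and a known target of interferon gamma, was the 1 cytosolic synthetase above 0, at 0.44 ± 0.29 (adjusted p = 0.406), and was picked out after its values were seen. Its values spread more widely than those of the other synthetases, from 8.89 to 10.59 in pregnant and from 8.91 to 10.11 in non-pregnant sows. Pregnant Landrace sows 6 and 10 both lay at 10.59 and non-pregnant sow 7 at 10.11, while sow 8, also pregnant and Landrace, was the lowest of its group at 8.89. IFNG, the interferon gamma gene, lay at 8.21 in sow 6 and 12.65 in sow 10 and at 3.61 to 4.41 in the other 10 arrays, sow 7 included at 4.41. Whether WARS and IFNG are related was not tested.

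**Figure D3:**
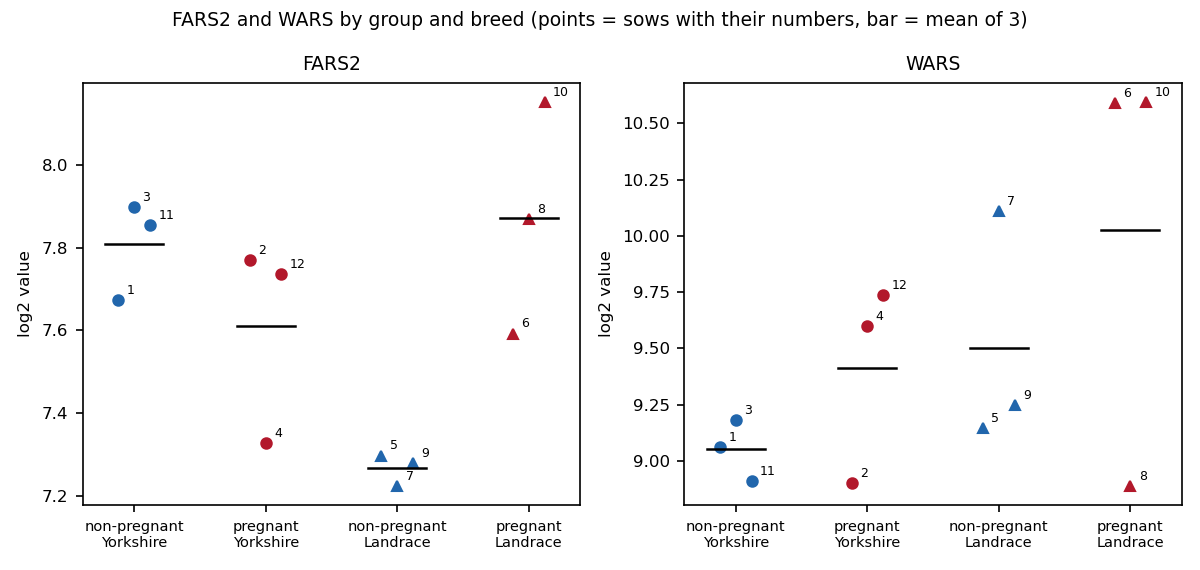
Log2 values of FARS2 and WARS in each sow by pregnancy and breed (n = 3 per combination, sow numbers beside the points, bars for means). FARS2 lies at 7.59 to 8.15 in pregnant and 7.22 to 7.30 in non-pregnant Landrace sows, and WARS is high in pregnant sows 6 and 10 and in non-pregnant sow 7.

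Mitochondrial synthetases gave no call, and 2 of 6 passed unadjusted p under 0.05. EARS2, the mitochondrial glutamate enzyme, lay at 6.61 to 6.78 in pregnant and 6.77 to 7.17 in non-pregnant sows, a difference of -0.22 ± 0.08 (adjusted p = 0.109). WARS2, the tryptophan enzyme of mitochondria, lay at 5.88 to 6.44 against 6.27 to 6.65, a difference of -0.26 ± 0.10 (adjusted p = 0.12). VARS2, the valine enzyme, differed by -0.05 with an interval of -0.20 to 0.10. NARS2, the asparagine enzyme, lay at 3.64 to 4.06 over all sows, under each array's lower quartile, and its difference was 0.09.

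EEF1E1, also called AIMP3, a scaffold protein of the multi-synthetase complex with a name given for its likeness to elongation factors, had the largest fall. It lay at 6.58 to 7.22 (median 6.90) in pregnant and 7.55 to 7.97 (median 7.70) in non-pregnant sows. All pregnant sows lay below all non-pregnant sows, with pregnant sow 12 the nearest at 7.22. The difference of EEF1E1 was -0.78 ± 0.11 (adjusted p = 0.00517), and its second probe set gave -0.70 (adjusted p = 0.00916). Members of the complex followed here also included EPRS, MARS, DARS, LARS, RARS and KARS. The scaffold proteins AIMP1 and AIMP2, which the choice by name left out, were added. This list does not hold every member of the complex. With EEF1E1, 4 of these 9 listed genes fell and 8 lay below 0, with a median of -0.29. Over all genes 7.48% were called lower and 55.7% lay below 0. AIMP1 at 0.08 (adjusted p = 0.605) and AIMP2 at -0.18 (adjusted p = 0.179) were not called. Grouping them was done with the results known, and LARS, at -0.43 ± 0.18 (adjusted p = 0.162), was not called.

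EIF4E binds the cap of messenger RNA and is held back by the 4E-BP proteins. It lay at 5.90 to 6.49 (median 6.03) in pregnant and 6.50 to 6.99 (median 6.88) in non-pregnant sows. The groups came as near as 6.49 in pregnant sow 12 and 6.50 in non-pregnant sow 3, without overlap. The difference of EIF4E was -0.71 ± 0.12 (adjusted p = 0.00688). EIF4A3, an RNA helicase of the exon junction complex named for its likeness to the eIF4A helicases, lay at 9.04 to 9.32 (median 9.25) against 9.29 to 9.67 (median 9.49). Only non-pregnant sow 1, at 9.29, lay within the range of the pregnant sows. EIF4A3 differed by -0.28 ± 0.07 (adjusted p = 0.0251). The cap-complex scaffold EIF4G1 at -0.47 (adjusted p = 0.0751) and the helicase EIF4A1 at -0.30 (adjusted p = 0.0694), both picked out after their values were seen, lay nearest to the threshold. The inhibitor EIF4EBP2 lay at 0.22 (adjusted p = 0.392), and over the 11 genes of the eIF4 class the median was -0.17, with 2 called lower.

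Genes of the eIF2 cycle went in both directions. eIF2 carries the initiator transfer RNA and is recharged with GTP by eIF2B. EIF2S1, the alpha subunit of eIF2 that stress kinases phosphorylate, lay at 9.40 to 9.83 (median 9.54) in pregnant and 9.59 to 10.15 (median 9.80) in non-pregnant sows. The ranges overlapped, and pregnant sow 10 was the highest of its group. EIF2S1 differed by -0.28 ± 0.07 (adjusted p = 0.0363). EIF2S2, the beta subunit, differed by -0.12 (adjusted p = 0.503).

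Of the 4 measured eIF2B subunits 1 fell and 1 rose. EIF2B3, the gamma subunit, lay at 6.50 to 6.92 (median 6.74) in pregnant and 6.86 to 7.40 (median 7.13) in non-pregnant sows, a difference of -0.38 ± 0.09 (adjusted p = 0.0263). EIF2B2, the beta subunit, lay at 8.78 to 9.16 (median 9.04) against 8.52 to 8.87 (median 8.61), a difference of 0.35 ± 0.08 (adjusted p = 0.0229). In both genes sow 12 was the pregnant sow nearest to the non-pregnant group. EIF2B1 and EIF2B4, the alpha and delta subunits, differed by -0.01 and 0.02, with 95% intervals of -0.20 to 0.17 and -0.16 to 0.21. EIF2AK2, the interferon-induced kinase PKR, which phosphorylates eIF2 alpha, lay at 8.39 to 9.89 in pregnant and 8.91 to 9.99 in non-pregnant sows. Pregnant sow 12 stood at 9.89, the other 5 pregnant sows at or below 9.0, and the difference was -0.57 ± 0.24 (adjusted p = 0.172).

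Among the other genes of the set no further gene was called for pregnancy. eIF3 is the scaffold on the small ribosomal subunit, and 7 of its 9 measured subunits lay below 0 with a median of -0.10. EIF3I at -0.35 ± 0.11 (adjusted p = 0.0688) and EIF3A at -0.21 ± 0.08 (adjusted p = 0.145) had the smallest p of that class. EIF3I lay at 9.02 to 9.52 in pregnant and 9.22 to 10.00 in non-pregnant sows, with wide overlap. EIF1AX, a start codon scanning factor, differed by -0.18 (adjusted p = 0.183). EIF1AY, at 2.78 to 3.08 in all sows, was likewise under each array's lower quartile. EIF5A, which relieves stalled ribosomes, differed by 0.00 (interval -0.14 to 0.15), and EIF6, which keeps ribosomal subunits from joining too early, by -0.20 (interval -0.37 to -0.03, adjusted p = 0.141). EEF1AKMT1, a methyltransferase that acts on the elongation factor eEF1A and is no factor itself, lay at 8.62 to 9.30 in pregnant and 8.47 to 8.90 in non-pregnant sows, a difference of 0.25 (adjusted p = 0.0855). The eEF1 exchange subunit EEF1B2 lay at 12.40 to 12.65 against 12.38 to 12.74, a difference of -0.06.

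**Figure D4:**
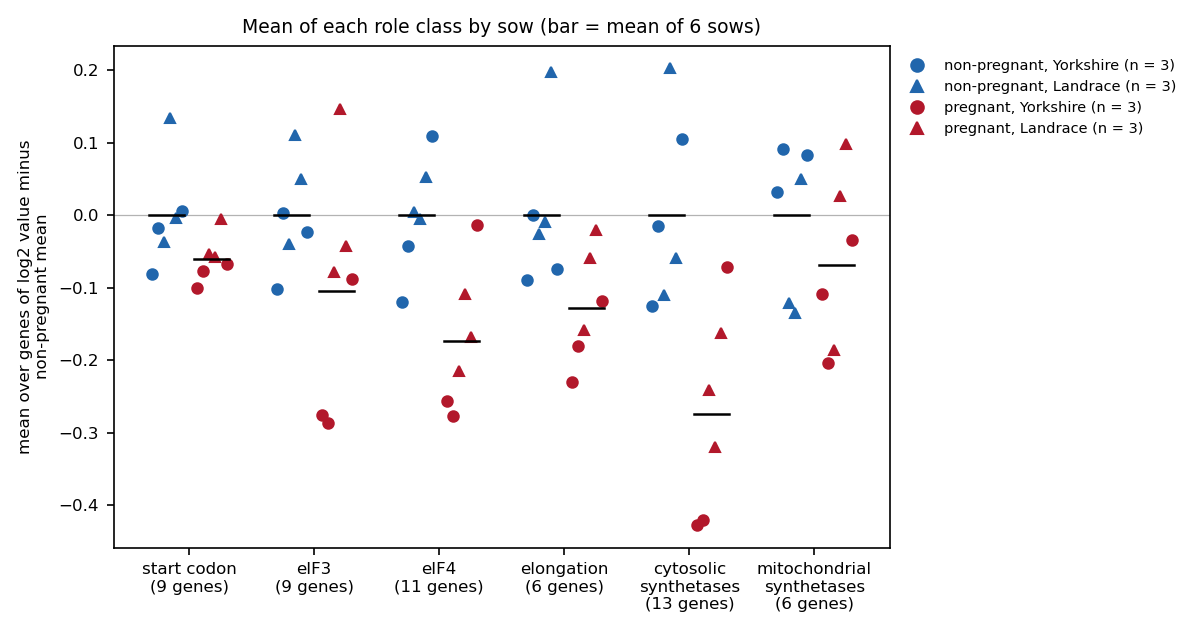
Mean over the genes of 6 classes of the log2 value minus the non-pregnant mean of each gene, 1 point per sow (n = 6 per group; circles Yorkshire, triangles Landrace), with the group mean as a bar. Cytosolic synthetases run from -0.43 to -0.07 in pregnant sows and from -0.13 to 0.20 in the others, and eIF3 subunits from -0.29 to 0.15 and from -0.10 to 0.11.

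Averaged per sow against the non-pregnant mean of each gene, the 13 cytosolic synthetases stood at -0.43 to -0.07 in pregnant sows and -0.13 to 0.20 in non-pregnant sows. Pregnant sow 12 was the highest pregnant sow, and non-pregnant sow 7 the highest of all. Sows 2 and 4, both pregnant Yorkshire sows, were lowest, at -0.43 and -0.42. Of the 13 genes, 9 to 13 lay below the non-pregnant mean in a pregnant sow and 1 to 13 in a non-pregnant sow. Factors stood at -0.23 to -0.03 in pregnant and -0.10 to 0.06 in non-pregnant sows.

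Several calls were lost when 1 sow was left out, though the differences kept their sign. DARS, which lost its call most often, ranged from -0.33 to -0.25 over those fits. AARS, EPRS, SARS, EEF1E1 and EIF4E kept their call whichever of the 12 sows was left out, and the other 7 lost it in 4 (HARS) to 10 (DARS) of those 12 fits. HARS lost its call without sow 2, 4, 6 or 9, and DARS without any 1 sow other than 6 and 12. The total of 12 calls became 5 without sow 2 or 4, 6 without sow 3 or 6, 7 without sow 9, and 19 without sow 12. The share of all genes called moved too: it was 6.16% and 7.05% without sows 2 and 4 (8.2% of the set in both), 6.36% and 6.43% without sows 3 and 6 (9.84% of the set in both), 6.74% without sow 9 (11.5% of the set) and 15.9% without sow 12 (31.1% of the set). Leaving out sows 7 and 12 together gave 15 calls, 24.6% of the set against 19.2% of all genes, with 6 synthetases lower. The synthetase count was 3 without sow 2 or 4, 4 without sow 3, 5, 6, 9 or 11, and 8 without sow 12. The count of lower factors was 2 without sow 2, 3, 4, 6 or 9, and 9 without sow 12. The rise of EIF2B2 was lost without sow 2, 3, 4, 5 or 6. The called genes had 7 further probe sets, all 7 with the same sign and 3 of them called, those of EPRS and EEF1E1. The second probe sets of SARS (-0.26, adjusted p = 0.154) and HARS (-0.20, adjusted p = 0.156) were not called, nor were those of AARS and DARS. Averaged over their probe sets, SARS and HARS were still called, at -0.33 and -0.37 (adjusted p = 0.0387 and 0.0323). In the fit with the GAPDH measure as a covariate, which called none of the 61, the median of the cytosolic synthetases was -0.36.

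Markers of cell types differed between the groups beside these genes. Of 8 endothelial markers 7 rose, and their mean was 0.36 to 0.97 in pregnant and -0.32 to 0.21 in non-pregnant sows. Of 7 measured stromal markers 4 rose. Of 10 epithelial markers 2 fell and 1 rose, and their mean was -0.61 to 0.08 in pregnant and -0.11 to 0.10 in non-pregnant sows. Leukocyte markers had no call in 6 measured, but their mean reached 2.04 in non-pregnant sow 7 and lay at -0.23 to 0.32 in pregnant sows. Smooth muscle markers (0 of 7 called), red blood cell markers (0 of 3) and trophoblast markers (0 of 7) had no call. The trophoblast mean reached 1.76 in pregnant sows, with a median of 0.02 over the 6 pregnant sows. IFNG, given above beside WARS, is 1 of these 7 trophoblast markers. Of the 5 endometrial identity genes 1, the estrogen receptor ESR1, fell (-0.58, adjusted p = 0.0257), with a median of -0.55 for the list. Their mean was -0.53 to -0.09 in pregnant and -0.33 to 0.21 in non-pregnant sows. No measured marker lay under the lower quartile of all 12 arrays. The part of these cell types in the fall of the synthetases was not tested.

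Few partners of the 61 genes were called. Of 8 measured synthetase partners, 1 fell: FARSB, the beta subunit of the cytosolic phenylalanine enzyme, at 7.73 to 8.36 (median 8.09) in pregnant and 8.32 to 8.74 (median 8.62) in non-pregnant sows (difference -0.50 ± 0.11, adjusted p = 0.0195). The ranges of FARSB overlapped only between 8.32 and 8.36. FARSA, the other subunit, differed by -0.35 ± 0.12 (adjusted p = 0.106) and was not called. Both are parts of a synthetase and stand in this list only because the choice by name left them out. None of 7 initiation partners and mRNA-end proteins, 3 termination factors, 6 mitochondrial translation factors, 8 genes of the mTORC1 arm or 17 target genes of the eIF2-ATF4 stress response, which includes several synthetases as known targets in other cells, was called. The 3 termination genes measured, MRRF, MTRF1 and MTRF1L, act in mitochondria and are also counted among the 6 mitochondrial factors. The medians of these lists lay between -0.17 and 0.02.

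The second comparison, Landrace against Yorkshire, gave calls among factors. Of the 42 factors 5 were higher and 1 lower in Landrace sows, while 0 of 19 synthetases were called in limma (2 passed unadjusted p under 0.05, and 1 was called when all probe sets of a gene were averaged). Over all genes 5.26% were called, 2.03% higher and 3.24% lower, against 9.84% (6 of 61) here and 14.3% of the factors. At unadjusted p under 0.05, 18 of the 61 and 21.9% of all genes passed. The median was 0.10 for the factors with 30 of 42 above 0 (50.7% of all genes), 0.02 for the synthetases and 0.00 for all genes. The difference in RNA integrity between the breeds given above moves with this comparison. In the fit with it as a covariate no gene of the set was called, and the factor median was 0.15. Of the cell markers, the steroid receptor PGR (-0.40, adjusted p = 0.00906), 1 of 5 endometrial identity genes, and the collagen gene COL1A2 (-0.77, adjusted p = 0.0266), 1 of 7 stromal markers, were lower in Landrace sows. None of 6 leukocyte markers was called, with a median of 0.55 and a mean of -0.40 to 2.04 in Landrace and -0.52 to 0.06 in Yorkshire sows. The epithelial, endothelial, smooth muscle, red blood cell and trophoblast lists had no call for breed. The part of these cell types in the breed differences was not tested.

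EIF3M and EIF3K are subunits of eIF3, of which 7 of 9 measured subunits lay above 0 with a median of 0.21. EIF3M lay at 9.80 to 10.20 (median 9.98) in Landrace and 9.29 to 9.75 (median 9.50) in Yorkshire sows. The breeds did not overlap, a pattern that 1.17% of all genes showed in the higher direction. The difference of EIF3M was 0.47 ± 0.09 (limma adjusted p = 0.0139). A second EIF3M probe set gave 0.12 (adjusted p = 0.674), and the mean of both, at 0.29, was not called (adjusted p = 0.141). EIF3K lay at 10.72 to 11.12 (median 10.94) against 10.47 to 10.81 (median 10.54), a difference of 0.37 ± 0.08 (adjusted p = 0.0227). Yorkshire sow 3, at 10.81, and Landrace sow 6, at 10.72, made the overlap. EIF3H differed by 0.30 (adjusted p = 0.0687).

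EIF2S2, the beta subunit of eIF2, lay at 9.65 to 10.13 (median 9.82) in Landrace and 9.33 to 9.61 (median 9.49) in Yorkshire sows. The breeds did not overlap, and Landrace sow 7 was highest. The difference of EIF2S2 was 0.40 ± 0.09 (adjusted p = 0.0257). The alpha subunit EIF2S1 had a difference of 0.27 ± 0.07 that missed the threshold (adjusted p = 0.0505). EIF4G3, a cap-complex scaffold, differed by -0.30 (adjusted p = 0.0974). EIF5B, which joins the ribosomal subunits and was picked out after its values were seen, differed by -0.45 (adjusted p = 0.0633), while its other probe sets gave 0.41 and 0.25.

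**Figure D5:**
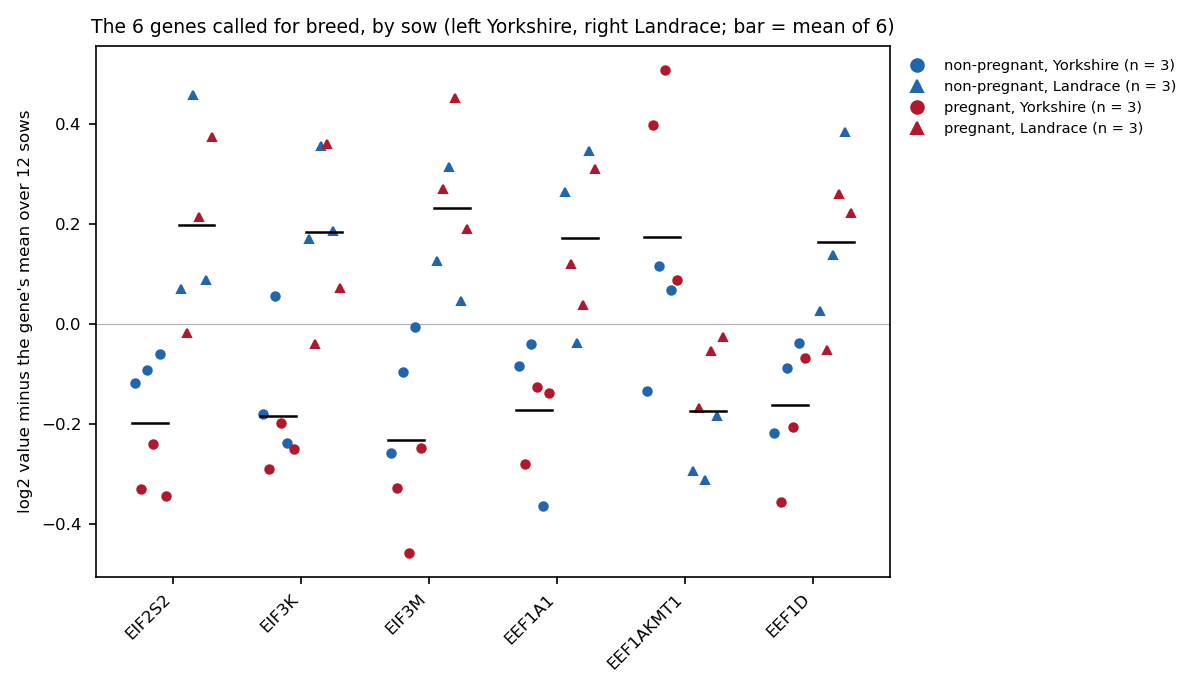
Log2 values of the 6 genes called for breed, each minus the mean of the gene over the 12 sows, 1 point per sow (n = 6 per breed; red pregnant, blue non-pregnant), with the breed mean as a bar. EIF3M, EIF2S2 and EEF1A1 have no overlap between the breeds, and EEF1AKMT1 is lower in Landrace sows.

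Of the elongation class EEF1A1 and EEF1D were higher and EEF1AKMT1 lower in Landrace sows. EEF1A1, which delivers charged transfer RNA to the ribosome, lay at 9.0 to 9.38 (median 9.23) in Landrace and 8.67 to 9.0 (median 8.90) in Yorkshire sows, a difference of 0.35 ± 0.09 (adjusted p = 0.0407). The breeds met at 9.0 in Landrace sow 7 and Yorkshire sow 3. This probe set is of a kind that can detect several similar transcripts, and EEF1A1 has close copies, so its level is uncertain. Another EEF1A1 probe set was also called (0.50, adjusted p = 0.0216), and the other gave -0.08. The mean of all EEF1A1 probe sets, at 0.26, was not called (adjusted p = 0.107). EEF1D, an exchange subunit of eEF1, lay at 10.55 to 10.99 (median 10.78) against 10.25 to 10.56 (median 10.45), a difference of 0.33 ± 0.09 (adjusted p = 0.0486). Landrace sow 6 and Yorkshire sow 11 made its narrow overlap. EEF1AKMT1 lay at 8.47 to 8.76 (median 8.61) in Landrace and 8.65 to 9.30 (median 8.89) in Yorkshire sows, a difference of -0.35 ± 0.08 (adjusted p = 0.0306). Its second probe set gave -0.05, and the mean of both, at -0.20, was not called (adjusted p = 0.167).

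For breed only EIF3M kept its call whichever of the 12 sows was left out. EIF3K lost its call when sow 1 or 11 was left out, and EIF2S2 when sow 2, 10 or 12 was. EEF1AKMT1 lost it in 8 of the fits and EEF1A1 and EEF1D in 10. The count of 6 became 2 without sow 2 or 10, which is 3.28% of the set against 4.39% and 3.15% of all genes. It became 3 without sow 1, 4, 11 or 12, 4.92% of the set against 3.5% to 4.46% of all genes, so the share of the set was then near that of all genes. It was 2, 3.28% against 3.34%, without sows 7 and 12 together, when EIF3M, EIF3K, EIF2S2 and EEF1D were no longer called. The count of factors higher in Landrace was 2 without sow 1, 2, 10, 11 or 12, and 3 without sow 4 or 9. Among synthetases, AARS at -0.21 (adjusted p = 0.298), DARS at 0.18 (adjusted p = 0.224) and RARS at 0.15 (adjusted p = 0.234) were not called. A second DARS probe set was called at 0.80 (adjusted p = 0.0215). Among factors not called, a second EIF4B probe set was called at 0.34 (adjusted p = 0.0341). The probe set that represented EIF4B gave 0.19 (adjusted p = 0.424), and their mean values were 10.10 and 10.17. Of the partners, RRAGA, a GTPase that recruits mTORC1 to lysosomes, was lower in Landrace sows, at -0.25 ± 0.05 (adjusted p = 0.0194), the only call among 8 genes of that list, and the other 5 partner lists had none.

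Within each breed, with 3 sows a group, limma called 0 of 61 genes for pregnancy in Yorkshire sows, where 0 of 6765 genes were called, and 17 of 61 passed unadjusted p under 0.05 (21.7% of all genes did). In Landrace sows 1 was called, EIF4E at -0.84 (adjusted p = 0.0398), against 1.64% of all genes, and 19 passed unadjusted (20.7% of all genes). EIF4E was -0.58 in Yorkshire sows (adjusted p = 0.146). Of the 19 synthetases 18 lay below 0 in Yorkshire sows and 15 in Landrace sows. With the 6 arrays of 1 breed alone, 0 of the 61 were called in either breed. Between the breeds, 0 of 61 were called in non-pregnant sows (11 unadjusted, 16% of all genes; 1.23% of all genes called) and 1 in pregnant sows, EIF3M at 0.65 (adjusted p = 0.0295; 0.591% of all genes called, and 14 of the 61 and 13% of all genes unadjusted). EIF3M was 0.28 in non-pregnant sows (adjusted p = 0.279).

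The interaction, which asks whether the pregnancy effect differed between breeds, gave 0 calls in the 61 genes and in all 6765 (2 and 336 at unadjusted p under 0.05, which is 4.97% of all genes). The smallest p in the set was that of FARS2, the mitochondrial phenylalanine enzyme. In Landrace sows FARS2 lay at 7.22, 7.28 and 7.30 without and 7.59, 7.87 and 8.15 with pregnancy. In Yorkshire sows it lay at 7.67, 7.85 and 7.90 without and 7.33, 7.74 and 7.77 with pregnancy. The Landrace groups did not overlap, and in Yorkshire sows only pregnant sow 4 lay apart. With so few sows a group, such a separation can arise by chance. The share of all genes without overlap within Landrace was not counted, and FARS2 was picked out for its small interaction p. The differences were 0.61 in Landrace and -0.20 in Yorkshire sows, and their difference of 0.80 ± 0.22 (limma, unadjusted p = 0.00332) had an adjusted p of 1. EIF3M and EIF3H followed, with interaction differences of 0.37 and 0.33 (unadjusted p = 0.0408 and 0.0513).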

How the data were processed

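Values were deposited on the log2 scale, 1 per probe set and array. The submitters' processing notes name RMA, affy and limma and give no versions. RMA makes the arrays' distributions alike, so differences are relative to other probe sets of an array. Of 24123 probe sets 124 controls were left out. In all, 10069 tested probe sets had 1 symbol in the platform annotation, 198 several and 13732 none; of the 61 genes, 60 were found by gene ID in RefSeq (Sscrofa11.1). No genome build of the array was used, so no coordinates are given. Tests used lmFit and eBayes of limma 3.58.1 (R 4.3.3), two-sided, on all 12 arrays: pregnancy plus breed (9 residual degrees of freedom), and 4 groups (8) for within-group effects and the interaction. Intervals are 95%. The number of arrays limits the precision.

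Each sow is 1 replicate. The labels describe separate animals and share no replicate numbers between groups. The genes, lists and alternatives were chosen with earlier results of these data known. Genes named are those called, the smallest p for pregnancy and for breed in each class (2 each), the brightest and dimmest factor and synthetase, the 3 smallest interaction p, and called list members. Others named were chosen after their values were seen. The fitting procedure was tested on simulated data with independent errors, without arrays that stand apart or a breed difference in RNA integrity. That test therefore does not check the calls made here. Alternatives were cyclic loess, median centring, a filter on dim probe sets, array weights, a robust prior with an intensity trend, other breed terms, the mean of a gene's probe sets, a stricter threshold, the GAPDH measure as a covariate, and leaving out sows.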

Additional observations from a re-analysis of the deposited data

Results flagged for a closer look

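Single sows stood apart from the rest of their group in 3 of 74 groups tested (37 named genes in 2 groups of 6 sows each), where chance gives about 1 in 20. EPRS was 8.77 in pregnant sow 12, while its 5 group mates ranged from 8.29 to 8.44. For EIF2S2, sow 7, which was not pregnant, reached 10.13 and its group mates 9.55 to 9.76. For EIF2B1, sow 1, also not pregnant, had 8.02 and its group mates 8.28 to 8.36.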

How the results depend on the processing

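No called difference changed sign under an alternative. Of 74 differences of named genes, 19 that were not called changed sign in at least 1, among them EIF5A, EIF2B1 and KARS for pregnancy. At adjusted p under 0.01 the pregnancy calls numbered 3 (1 synthetase and 2 factors lower, 0 factors higher). That was 4.92% of the set and 2.28% of all genes. The breed calls numbered 0, with 0 factors higher in Landrace, while 1.43% of all genes were called. With the GAPDH covariate all of these counts were 0. Array weights gave 8 factors lower and 2 higher in pregnancy (29.5% of the set and 22% of all genes called), and leaving out the breed term gave 3 lower (14.8% and 7.95%). Without sows 7 and 12 together, 2 factors were higher in pregnancy (24.6% of the set and 19.2% of all genes called). The breed count was then 2 (3.28% and 3.34%), and the factors higher in Landrace numbered 1. The intensity trend and the mean of all probe sets each gave 3 factors higher in Landrace, and the latter called 1 synthetase for breed. Each called 6.56% of the set for breed, against 4.73% and 4.72% of all genes. The 6 Landrace arrays alone gave 0 calls.

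Leaving out 1 sow at a time, the pregnancy count ranged from 5 to 19, lower synthetases from 3 to 8, lower factors from 2 to 9, higher factors from 0 to 2, the breed count from 2 to 5 and factors higher in Landrace from 2 to 5. Over the same fits 6.16% to 15.9% of all genes were called for pregnancy and 3.15% to 5.91% for breed. Synthetases called for breed and interaction calls stayed at 0. The median differences ranged from -0.35 to -0.27 for cytosolic synthetases and from -0.11 to -0.05 for factors in pregnancy, and from 0.09 to 0.14 for factors between breeds. No paired analysis was possible because the groups share no replicate numbers; whether neighbouring sow numbers mark pairs is not given in the sources used here. Why these counts moved was not tested. With 6 sows a group and 3 per breed, small differences can go undetected, and genes near background are measured least well.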
